A study of Rattus norvegicus with 9 samples.

Results

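Fragments of tRNA-Lys-CTT, the nuclear lysine tRNA whose anticodon CTT reads AAG codons, were followed in pancreatic islets of 22-day-old rats. All distinct sequences whose host was given as a nuclear lysine tRNA were taken, which gave 7 of the 192 distinct tRNA-derived fragments (tRFs) in the deposited table. Every one had tRNA-Lys-CTT as its only host. The islets came from Sprague Dawley rats whose mothers had eaten a chow diet with 16.8% protein (CD, 5 samples) or a low-protein diet with 5.3% protein (LP, 4 samples) during gestation and lactation. Per the study's methods the rats were male, and the small RNA libraries came from whole islets, which hold several endocrine cell types. Before the libraries were made, RNA had been treated to free blocked fragment ends and to remove base methylations that stop reverse transcription. The study asked which islet tRFs differ after protein deficiency early in life. The table holds only tRFs that the authors had called as changed between these samples, so a tRF that did not differ is not in it, and tests on it are no independent evidence of a change. No cell type marker can be read from a table of tRFs.

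A tRNA folds into an acceptor stem, a D arm, an anticodon arm and a T arm, and every mature tRNA ends in CCA, where the amino acid is attached. Nucleases that cut in the anticodon loop, such as angiogenin, leave a 5' and a 3' piece, and cuts in the D or T arm leave shorter fragments. The 5' pieces are best known from stressed cells, where those of some tRNAs slow translation. tRNA-Lys-CTT carries lysine, an essential amino acid that rats take from protein in the diet.

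The 7 sequences overlapped, so that 6 of them joined by exact overlaps of at least 8 bases into 1 tRNA of 76 nt, and the seventh differed from it at a single base. RefSeq's annotation of the rat assembly GRCr8 lists 16 genes for this tRNA, 15 of them 73 bases long, and the CCA tail is added after transcription. Positions are counted from 1 at the first base of the joined sequence. No genome sequence was used here, so the fragments were not assigned to single genes. The sequences are shown in the order of their starts because those that reach the tail fell and the others rose. Capitals mark the bases of the anticodon, at positions 34 to 36, and the bases of the CCA tail.
29: gcccggctagctcagtcggtagagcatga
34a: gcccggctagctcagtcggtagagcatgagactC
34b: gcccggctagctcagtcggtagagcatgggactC
39: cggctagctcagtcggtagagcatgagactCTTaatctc
42: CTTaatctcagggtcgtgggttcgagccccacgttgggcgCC
21: agggtcgtgggttcgagcccc
31: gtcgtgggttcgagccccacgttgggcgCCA

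Each fragment is named by its length in nt, with a letter where 2 share it. The 5' fragments, which start at position 1 and lack CCA, were 29, 34a and 34b. The 3' fragment, defined by a complete CCA end, was 31, which starts at position 46. The remaining 3 counted as internal. Fragment 39 runs from position 4 to 42 through the whole anticodon loop. Fragment 42 starts at position 34 and stops at position 75, so it holds the 3' side of the tRNA from the anticodon on, except for the last base of the tail. Fragment 21, at positions 43 to 63, runs from the end of the anticodon stem through the variable loop into the T arm. Both 34-nt fragments end after position 34, the first base of the anticodon, and fragment 42 begins on that same base. Fragment 34b differs from 34a by A29G, in the anticodon stem, so the pair stands for 2 sequence forms of the tRNA. Position 29 is the only place where the 7 sequences differ. Fragments 29, 34a and 39 carry the first form, and the fragments that start beyond that position cannot be assigned by it.

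**Figure D1:**
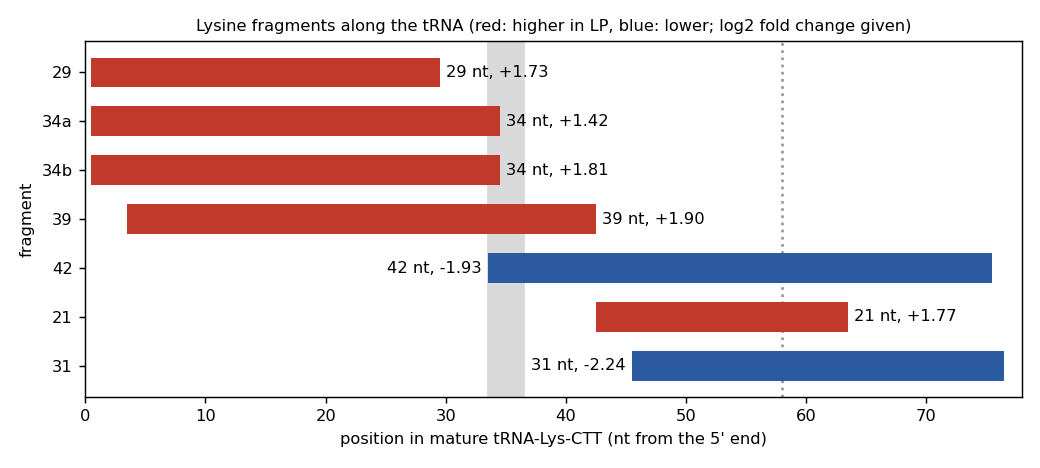
Place of each fragment on mature tRNA-Lys-CTT, with the position from the 5' end in nt on the x axis and 1 bar per fragment. Red bars were higher and blue bars lower in LP, with length and log2 fold change printed beside them, the grey band marks the anticodon and the dotted line position 58. Both fragments that reach the tail, 42 and 31, were lower (-1.93 and -2.24), and the other 5 were higher (1.42 to 1.90).

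In LP islets the 3 5' fragments and the internal fragments 39 and 21 were higher, and fragments 42 and 31, the only ones that reach the tail, were lower. The rises were 2.69- to 3.85-fold and the falls 3.86- and 4.86-fold between group means. Levels are normalized read counts, the deposited raw counts divided by the size factors that the authors had used for each library. With edgeR's quasi-likelihood test over the table, at 2-fold and a Benjamini-Hochberg adjusted p of 0.05, 5 lysine tRFs were called higher and 2 lower. Among all 181 tRFs tested, 41.4% were called higher and 56.4% lower, so nearly all rows pass and the count says little beyond the selection. All 7 passed the filter on low counts. In whole islets, a change in the share of a cell type and a change in RNA per cell cannot be told apart.

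The most abundant lysine tRF was the long 5' fragment 34a, which ranked 42nd by mean level among the 192. It had 24, 65, 86, 98 and 91 raw counts in CD 1 to CD 5, and 154, 99, 386 and 438 in LP 1 to LP 4. Every LP library held more raw counts than every CD library, though LP 2 exceeded CD 4 by a single count. In normalized read counts the mean was 76.2 ± 25.8 for CD (SD, n = 5) and 205 ± 74.2 for LP (SD, n = 4), with an estimated log2 difference of 1.42 ± 0.42 (SE, edgeR adjusted p = 0.00546). After scaling, LP 2 at 98.7 lay below CD 4 at 105.7, so these groups overlapped at that pair.

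The same fragment from the second form of the tRNA, 34b, was less abundant and rose as well. Raw counts were 5, 7, 11, 26 and 25 in CD 1 to CD 5 and 61, 31, 94 and 80 in LP 1 to LP 4. CD 4 and CD 5 stood above the other CD libraries, and no CD library reached the lowest LP library. The normalized means were 15.7 ± 10.3 for CD and 55.9 ± 23.1 for LP, which gave a log2 fold change of 1.81 ± 0.51 (edgeR adjusted p = 0.00500).

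Whether the 2 forms rose alike was asked from the share of 34b among the counts of both 34-nt fragments, a ratio within each library that needs no scaling. The share was 16.2% ± 5.43 (SD, n = 5) in CD and 21.8% ± 5.56 (SD, n = 4) in LP. It spanned 9.72% to 21.6% in CD and 15.4% to 28.4% in LP, so the groups overlapped. The difference of 5.65 percentage points was about as large as the SD of either group, and 3 of 4 LP libraries lay above the CD mean. A two-sided exact permutation test gave p = 0.167, which with 5 and 4 samples does not show that the 2 forms rose alike. Without LP 1 the difference was 3.46 percentage points. Counting error was wide, with a 95% Wilson interval of 7.60% to 34.6% in CD 1, where it rested on 29 counts. This share was chosen after the data were seen.

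The shorter 5' fragment, 29, stops in the anticodon stem before the loop. It had 3, 15, 15, 6 and 13 raw counts in the CD libraries and 30, 39, 46 and 63 in the LP libraries. Its normalized level rose from 10.7 ± 4.92 to 36.7 ± 4.18, by 1.73 ± 0.41 on the log2 scale (edgeR adjusted p = 0.00295). The LP libraries were close together, from 31.7 to 41.1, and all lay above the highest CD library at 16.5. Summed, the 5' fragments came to 32, 87, 112, 130 and 129 raw counts in CD and to 245, 169, 526 and 581 in LP. In normalized read counts the sums were 103 ± 35.8 and 297 ± 87.4, a 2.89-fold difference, and the groups did not overlap. These sums get no test, since their members had been selected as higher.

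Fragment 39 differs from the 34-nt fragments in that it holds all of the anticodon, and it lacks the first bases of the acceptor stem. It was the least abundant of the 7, with 3, 8, 11, 7 and 9 raw counts in CD and 18, 44, 50 and 34 in LP. The CD libraries were narrow, between 4.80 and 9.30 normalized read counts, and every LP library was above them, between 18.9 and 43.9. The means were 7.92 ± 1.87 and 30.5 ± 10.98, and the log2 fold change of 1.90 ± 0.39 was the highest of the lysine tRFs (edgeR adjusted p = 0.00178).

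**Figure D2:**
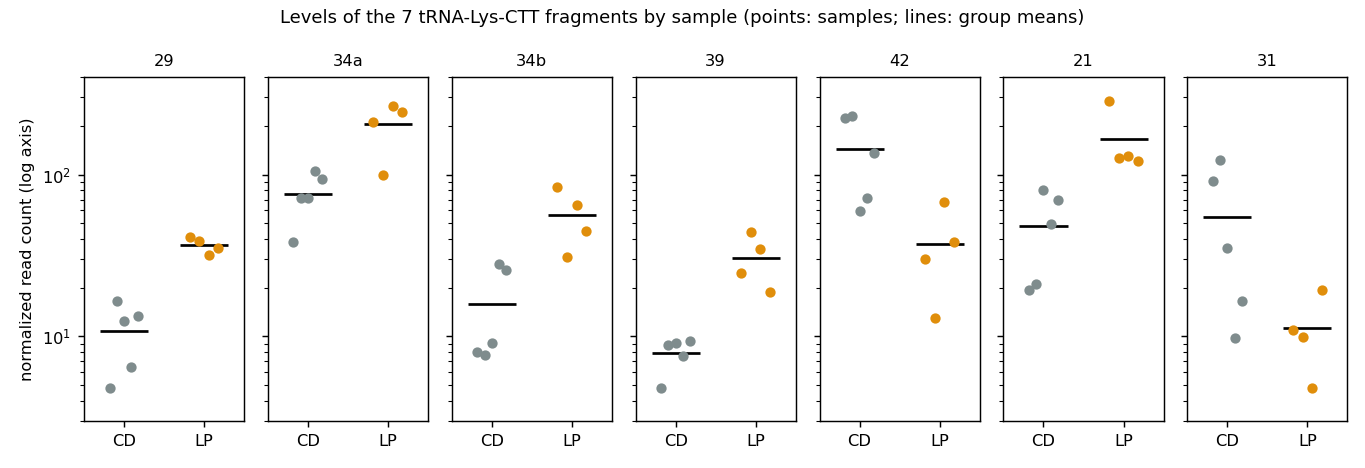
Normalized read counts of the 7 fragments on a log axis, 1 panel per fragment in the order of their starts, with each point a sample (CD, n = 5; LP, n = 4) and each line a group mean. CD and LP do not overlap for 29, 34b, 39 and 21, and overlap for 34a, 42 and 31.

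The 3' fragment 31, with the complete CCA end, fell. Raw counts were 57, 111, 42, 9 and 16 in CD 1 to CD 5 and 8, 10, 7 and 35 in LP 1 to LP 4. The CD libraries were far apart, and CD 4 and CD 5 lay among the LP libraries, so the groups overlapped before and after scaling. The normalized level averaged 54.9 ± 49.4 for CD (SD, n = 5) against 11.3 ± 6.07 for LP (SD, n = 4), with a log2 fold change of -2.24 ± 0.72 (SE, edgeR adjusted p = 0.00764). Its SE was the largest of the 7.

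Fragment 42, which holds the 3' side up to the last C of the tail, fell too, and it was the most abundant lysine tRF in CD. It had 139, 209, 72, 66 and 131 raw counts in CD and 22, 13, 98 and 69 in LP. LP 3 exceeded CD 3 and CD 4 in raw counts, and LP 4 exceeded CD 4. After scaling, LP 3 alone lay above a CD library, CD 3, at 67.4 against 59.9 normalized read counts. The mean went from 144 ± 80.6 to 37.2 ± 22.8, a log2 fold change of -1.93 ± 0.56 (edgeR adjusted p = 0.00521). The size of both falls moved with the scaling of the libraries, and both calls were lost under 1 setting. With edgeR and TMM scaling over the listed tRFs, both calls were kept near the threshold. There the log2 fold change was -1.24 for fragment 42 (edgeR adjusted p = 0.0386) and -1.54 for fragment 31 (edgeR adjusted p = 0.0487). When DESeq2 estimated the scaling on the listed tRFs themselves, the log2 fold change was -1.06 for fragment 42 (adjusted p = 0.0531) and -1.33 for fragment 31 (adjusted p = 0.0507). Under that setting the rises were larger, from 2.18 to 2.67, and 76 tRFs of the 192 were called higher and 61 lower. DESeq2 with the authors' size factors called 76 higher and 112 lower of the same 192, and edgeR 75 and 102 of 181.

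**Figure D3:**
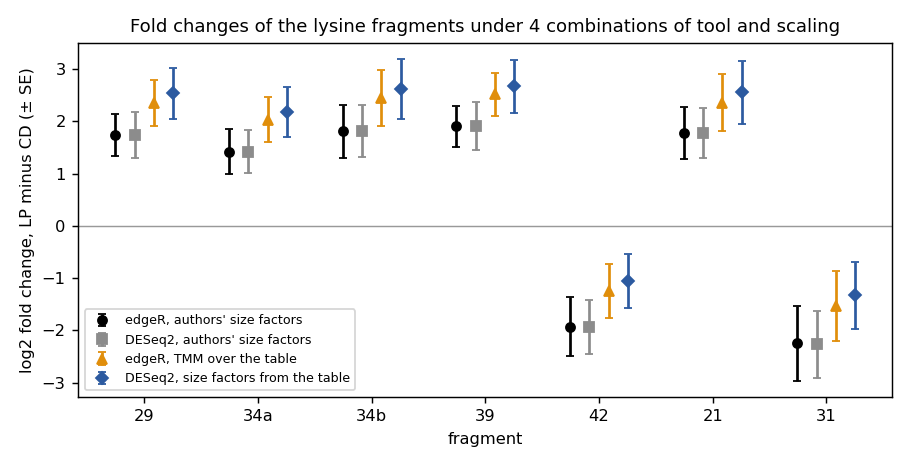
Log2 fold change, LP minus CD, of each lysine fragment (points, with bars of 1 SE) under 4 combinations of tool and library scaling. The 5 fragments that rose and the 2 that fell keep their sides of 0 in each, and the 2 combinations that take their scaling from the table move every estimate upward.

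Fragment 21 lies wholly within the sequence of fragment 42 and went the other way. It had 12, 19, 97, 46 and 67 raw counts in CD and 208, 127, 189 and 218 in LP, and every LP library was above every CD library. Its mean rose from 47.9 ± 27.8 to 166 ± 79.6 after scaling, and the log2 fold change was 1.77 ± 0.50 (edgeR adjusted p = 0.00500). LP 1 was the highest at 285, with the other LP libraries at 121 to 130. Without LP 1 the log2 fold change was 1.38. In CD 1 and CD 2, where fragments 42 and 31 were highest, fragment 21 was lowest, at 19.2 and 20.9 normalized read counts. The other nested pair, 29 within 34a, went in a single direction.

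For 4 of the 7 fragments (29, 34b, 39 and 21) every LP library lay above every CD library in normalized read counts, and for none did every LP library lie below. Over the table, 28.6% of the 192 tRFs had every LP library above and 47.9% had every LP library below. Both lysine fragments that fell thus overlapped between groups, and the table holds many falls that did not.

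To compare the 3' and 5' fragments without any library scaling, raw counts were divided within each library. The ratio of fragment 31 to 34a was 2.38, 1.71, 0.488, 0.0918 and 0.176 in CD 1 to CD 5, and 0.0519, 0.101, 0.0181 and 0.0799 in LP 1 to LP 4. CD 1 and CD 2 held more of the 3' fragment than of the 5' fragment, the other 7 libraries held less, and CD 4 lay within the LP range. On the log2 scale with a pseudocount of 1, the ratio averaged -0.96 ± 1.96 for CD (SD, n = 5) and -4.12 ± 1.05 for LP (SD, n = 4), which differ by -3.17. Without CD 1 this difference was -2.62, and without CD 4 it was -3.75. As the 2 fragments had been selected in opposite directions, no test is given. The ratio of fragment 42 to 34a ran from 0.673 to 5.79 in CD and from 0.131 to 0.254 in LP, and there the groups did not overlap. Fragments 42 and 34a had been selected in opposite directions as well, so this separation is no independent evidence of a change. The ratio of fragment 42 to 31 ran from 1.71 to 8.19 in CD and from 1.30 to 14 in LP, a wide overlap of the 2 fragments that reach the tail.

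The make-up of the lysine counts changed accordingly. Such a shift follows in part from the selection, since each of the 7 had been called higher or lower. Lysine tRFs that did not differ are not counted in these shares. Fragment 42 took 21.6% to 57.2% of the lysine counts of a library in CD and 3.58% to 11.3% in LP. The 5' fragments together took 13.2%, 20.05%, 33.5%, 50.4% and 36.6% in CD 1 to CD 5 and 48.9%, 46.6%, 60.5% and 62.0% in LP 1 to LP 4. Only CD 4 reached into the LP range. Fragment 31 took 3.49% to 25.6% in CD and 0.805% to 3.74% in LP. All lysine tRFs together were 0.747% to 1.55% of the table's counts in CD and 2.23% to 3.99% in LP, from 243 to 434 and from 363 to 937 raw counts. That share depends on the other tRFs of the table, and the table's totals were lower in LP 1 to LP 3 than in any CD library. With the authors' size factors, the normalized lysine total averaged 357 ± 83.8 for CD and 542 ± 138 for LP, a 1.52-fold difference. There the groups overlapped, with CD 2 at 478 above LP 2 at 362.

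**Figure D4:**
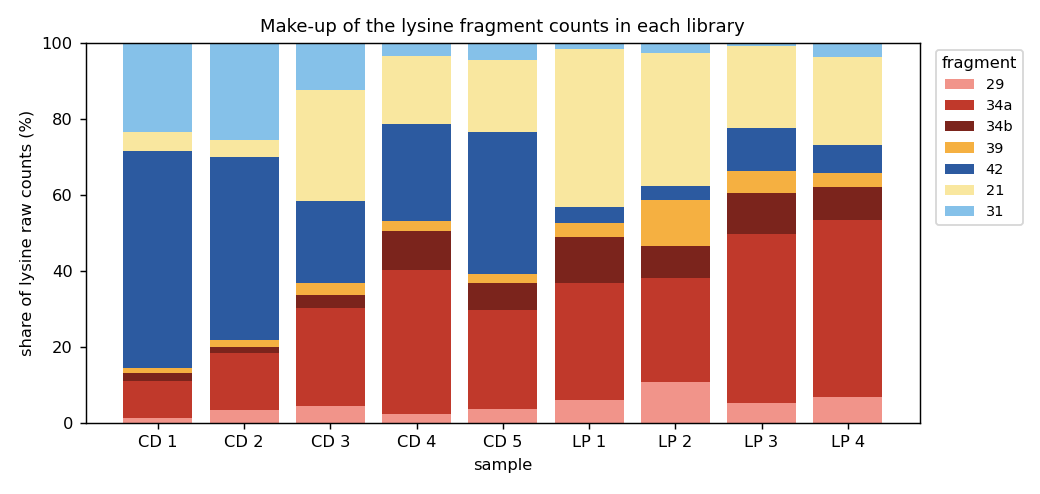
Share of the raw counts of the 7 lysine fragments in each library, in percent, 1 bar per library and 1 colour per fragment. The blue parts, fragments 42 and 31, fill most of CD 1 and CD 2, are smaller in CD 3 to CD 5, and are smaller still in the LP libraries.

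Features of sequence were set beside the direction of the fragments, and none was tested against it. The 3 fragments from the 3' side, 42, 21 and 31, all hold TTCGA, the start of the T loop, whose last A, here position 58, is a known site of N1-methyladenosine. This methylation was among those removed before sequencing. The motif, searched on the RNA strand only, is in 44.3% of the table's 192 sequences. Fragment 21, which rose, and fragments 42 and 31, which fell, all carry it. Content of G and C was 61.8% to 64.7% in the 5' fragments, 51.3% in fragment 39, 64.3% in fragment 42, and 71.4% and 71.0% in fragments 21 and 31. The rises and the falls thus share high and middle values. The longest run that a 5' fragment shared with a tRF of another host was 6 bases. Fragments 42 and 31 shared 15 bases of the T arm with tRNA-Val-TAC 26, and fragment 21 shared 14 with it. tRNA-Val-TAC 26 rose from 6.89 ± 3.43 to 39.3 ± 18.1 after scaling.

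Other nuclear tRFs of the same classes were set beside them, from lists chosen with earlier results of these data known. Among tRFs of 25 to 40 nt without CCA from other hosts, 44 were higher and 11 lower of 55, with a median log2 fold change of 1.87, against -1.49 over all 181 tested. The lysine 5' fragments and fragment 39 lie in that class and went with its majority. CCA-ended tRFs of 25 to 40 nt from other hosts were higher in 16 and lower in 4 of 20, with a median of 1.66. Fragment 31 is of that class and was lower, like the 4. CCA-ended tRFs of 16 to 24 nt were lower in 42 and higher in 1 of 47, with a median of -1.66. For the tRNAs of the other basic amino acids, arginine and histidine, 4 were higher and 15 lower of the 19 tested, with a median of -1.98, against 1.73 over the 7 lysine tRFs. That list was not split by length or CCA end, and no listed lysine tRF is a CCA-ended tRF of 16 to 24 nt. The medians may thus set unlike classes side by side. These counts describe a selected table, and whether lysine differs from them was not tested.

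By the deviations of log2 levels from the group means over the 9 samples, the tRFs most like the 5' fragment 34a were mtRNA-Cys-GCA 21 (Pearson's r = 0.861), tRNA-Val-AAC/tRNA-Val-CAC 32 (0.855) and tRNA-Asp-GTC 32a (0.839). The latter pair rose in LP, and mtRNA-Cys-GCA 21 had too few counts to be tested, at 10.7 ± 3.62 in CD and 2.74 ± 0.592 in LP. Those most like fragment 31 were tRNA-His-GTG 31a (0.964), a tRF of 19 nt shared by tRNA-Gly-CCC and tRNA-Gly-GCC (0.913), and tRNA-Leu-CAG 44 (0.827). All of these end in CCA. tRNA-His-GTG 31a has the same length as fragment 31 and went from 46.1 ± 35.6 to 7.79 ± 6.36 normalized read counts. The correlations are descriptions, since the points share libraries and their size factors.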

How the data were processed

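The authors extracted total RNA from islets, removed terminal blocks and base methylations, made small RNA libraries, annotated tRFs against nuclear and mitochondrial tRNA collections and tested LP against CD with DESeq2. Which aligner and build were used, and whether molecular tags were, is not given in the sources used. In all, the deposited table of 255 rows holds whole-number raw counts per tRF and sample, unscaled by the authors, and a normalized column per sample. The normalized columns are deposited as score values that the authors had variance-stabilised on a log2 scale. A fit of that transformation, with residuals of at most 5.7e-05, gave the authors' size factors, 0.625 to 1.80. The 3 columns of the authors' own comparison (fold change, adjusted p, direction) were not used.

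Rows were collapsed by sequence to 192 tRFs, with 12556 to 40166 counts per library. The total of a library is not held in a table of selected tRFs, so depth is known for these tRFs only. Groups were compared over the whole table with the quasi-likelihood test of edgeR 4.0.16 in R 4.3.3, scaled by those size factors, with a minimum count of 10 in the filter. Adjusted p-values are Benjamini-Hochberg over the 181 tRFs tested, and each SE is the absolute log2 fold change over the root of F. The test was first run on simulated data in which most tRFs were unchanged. That is unlike this table, so the run does not bear on these calls. DESeq2 1.42.0 and TMM served as alternatives. Within-library ratios used raw counts. The exact permutation test covered all 126 assignments of 9 samples. Intervals cover counting error only. Each sample was 1 rat, per the study's list of animals, and the sources used here do not say whether any were littermates. All 7 lysine tRFs were named, with the 3 tRFs most like 34a and the 3 most like 31. The members and lists were chosen with earlier results of these data known.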

Additional observations from a re-analysis of the deposited data

Results flagged for a closer look

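The 7 fragments, the sum of the 5' fragments and the ratio of fragment 31 to 34a were searched in each group for outlying samples. The gap of a sample to its neighbour was taken as a part of the group's range on a log scale. A set was flagged where chance gives so large a part at 1 in 20. Of 18 sets of values 2 were flagged, where chance gives about 0.9. The sets are not independent, since the 5' sum is made of fragments that were searched as well. Fragment 21 was highest in LP 1, at 285 normalized read counts, with a gap of 0.918 of the range. The 5' sum was lowest in LP 2, at 168.4 normalized read counts, with a gap of 0.852 of the range, and still lay above the highest CD library at 140.2. LP 1 has the lowest sum of listed tRFs, 12556 counts, and LP 2 the second lowest, 16280 counts. These sums cover selected tRFs only and are not library depth. The authors' size factors were 0.730 for LP 1 and 1.003 for LP 2, within the CD range of 0.625 to 1.203. The part of depth in these values was not tested.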

How the results depend on the processing

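The rises of 29, 34a, 34b, 39 and 21 passed under all 14 alternatives, and no lysine tRF changed direction. Over the table, every setting called 75 or 76 tRFs higher, so this stability says little beyond the selection. Of 98 estimates of single fragments under an alternative, 96 kept the call. The exceptions were the falls of 42 and 31, so that 0 lysine tRFs were called lower when DESeq2 estimated the scaling on the listed tRFs, where both had an unadjusted p under 0.05 (0.0398 and 0.0375) and edgeR called 2. The median log2 fold change of the table was -0.72 there, against -1.56 for DESeq2 with the authors' size factors, and TMM moved that of edgeR from -1.49 to -0.79. The log2 ratio of the 5' sums of LP and CD was 1.53, and 2.15 under TMM. Leaving out each sample in turn left 5 higher and 2 lower. The difference in the log2 ratio of 31 to 34a was then -3.75 to -2.62, and the log2 ratio of the 5' sums 1.36 to 1.73. For fragment 31, the only 3' fragment, the log2 ratio of the means of LP and CD was then -2.68 to -1.75. The difference in the share of 34b was 3.46 to 7.77 percentage points. Over the table, leaving out a sample gave 75 higher and 94 to 110 lower, of 173 to 187 tested. The replicate numbers shared by CD and LP mark no stated litter or day. Same-numbered samples had correlations of -0.401 to 0.078, and 0 of 8 samples correlated best with their own number. With the replicate number as a block, 5 lysine tRFs were higher and 2 lower, and the difference in the log2 ratio was -3.54. Over the table, that block gave 75 higher and 101 lower of 181. Low counts limit fragments 29 and 39, with 3 counts in CD 1.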

Other observations

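Within the lysine tRFs, deviations from the group means over the 9 samples gave a Pearson's r of 0.731 between 34a and 34b and of -0.788 between 34b and fragment 31. Fragment 31 had an r of -0.615 with fragment 21 and of 0.404 with fragment 42. Fragment 29 had an r of 0.220 with 34a, the sequence that contains it. These are descriptions over libraries that share size factors.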
